A study of Mus musculus with 6 samples.

Results

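The data described here are the open chromatin regions at 10 genes of the epidermal growth factor (EGF), insulin-like growth factor (IGF) and hepatocyte growth factor (HGF) systems: the receptor genes Egfr, Erbb2, Erbb3, Erbb4, Igf1r, Insr and Met and the ligand genes Egf, Hbegf and Igf1. A region belonged to a gene when the summit of its strongest peak lay in the gene body or within 20 kb of it (GRCm38, GENCODE release M21). The rule took 178 of the 99359 regions found in any library. Of these, 17 had their summit within 1 kb of an annotated start of the gene itself and are called promoter regions. A further 7 lay within 1 kb of the start of a neighbouring coding gene, and the other 154 are called distal. The assay for transposase-accessible chromatin (ATAC-seq), which marks open DNA by where a transposase can insert adapters, was applied to proximal tubule S1 segments dissected by hand from kidneys of wild-type male C57BL/6 mice aged 7 weeks. Each library was made from 3 tubules. In 3 libraries the mice had undergone a sham operation 24 h earlier (Sham), and in the other 3 the removal of 1 kidney, or unilateral nephrectomy (UNx). Nothing in the labels says whether the libraries of a group came from separate mice, so p-values measure only the spread between these samples.

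The 4 ErbB receptors belong to the family of receptor tyrosine kinases and signal as dimers. All but ERBB2 bind known ligands of the EGF family. Egf and Hbegf encode such ligands, made as membrane precursors and released by proteases. Igf1r and Insr encode the related receptors of insulin-like growth factors and insulin, Igf1 a circulating and local growth factor, and Met the receptor of HGF. In the kidney, EGFR and MET signalling is known for tubule growth and repair, EGF is made mainly by distal segments, and loss of 1 kidney is known to enlarge the proximal tubule of the other.

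2 intronic regions passed the test of UNx against Sham, and their sequences are shown here with those of 2 further intronic regions of small p and of 2 promoters. Each intronic window holds the 201 bases centred on the strongest summit, which is base 101, on the plus strand of GRCm38. These are chr7:68021840-68022040 in Igf1r, chr1:68823355-68823555 in Erbb4, chr10:128583772-128583972 in Erbb3 and chr11:16830644-16830844 in Egfr. The promoters, from the RefSeq table of GRCm38.p6, are those of Egfr (chr11:16751953-16752252, plus strand) and of the internal start of Egf (chr3:129725037-129725336, minus strand). Capitals mark matches on either strand to 10 consensus strings, of which TGANTCA (AP-1), CCGGAAGT (ETS) and the palindrome of nuclear respiratory factor 1 (NRF1) were found in these windows. AP-1 and ETS are families of transcription factors, and a match is a string of letters, not a site.
Igf1r intron: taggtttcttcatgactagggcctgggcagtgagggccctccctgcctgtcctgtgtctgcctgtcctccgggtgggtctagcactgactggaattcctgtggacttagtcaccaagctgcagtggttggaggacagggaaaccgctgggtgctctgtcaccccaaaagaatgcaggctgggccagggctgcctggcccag
Erbb4 intron: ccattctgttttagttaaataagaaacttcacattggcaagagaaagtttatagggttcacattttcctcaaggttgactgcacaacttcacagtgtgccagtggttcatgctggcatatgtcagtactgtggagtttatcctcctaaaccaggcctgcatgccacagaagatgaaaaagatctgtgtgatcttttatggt
Erbb3 intron: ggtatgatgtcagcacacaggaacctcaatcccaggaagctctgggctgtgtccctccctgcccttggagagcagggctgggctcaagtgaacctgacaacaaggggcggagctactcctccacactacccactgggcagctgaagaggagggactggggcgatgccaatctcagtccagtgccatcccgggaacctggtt
Egfr intron: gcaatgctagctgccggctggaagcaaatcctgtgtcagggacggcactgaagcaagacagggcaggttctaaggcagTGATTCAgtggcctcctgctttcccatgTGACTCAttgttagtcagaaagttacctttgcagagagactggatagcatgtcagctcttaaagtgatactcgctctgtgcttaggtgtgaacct
Egfr promoter: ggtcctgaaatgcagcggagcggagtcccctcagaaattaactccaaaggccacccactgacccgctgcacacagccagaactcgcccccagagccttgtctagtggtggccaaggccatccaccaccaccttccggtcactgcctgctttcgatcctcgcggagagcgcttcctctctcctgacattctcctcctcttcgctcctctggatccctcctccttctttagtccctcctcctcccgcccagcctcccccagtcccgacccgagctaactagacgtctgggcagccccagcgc
Egf internal promoter: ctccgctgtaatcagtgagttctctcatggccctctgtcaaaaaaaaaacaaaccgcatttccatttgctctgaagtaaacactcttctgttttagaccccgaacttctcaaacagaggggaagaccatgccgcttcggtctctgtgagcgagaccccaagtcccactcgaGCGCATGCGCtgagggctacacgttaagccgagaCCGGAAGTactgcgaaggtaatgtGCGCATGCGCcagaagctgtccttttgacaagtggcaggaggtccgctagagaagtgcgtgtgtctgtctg

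Strength is given as a percentile rank. To make the lists equally long, only the 77355 peaks of highest −log10 q in each were kept, and a peak ranks between 0 and 100 within its own list, with 100 for the strongest and 0 for a region that is not among those peaks. The sequencing depth is unknown, because the lists hold no read counts. The deposited lists held 77355 to 97834 peaks in Sham and 93583 to 100999 in UNx libraries. Sham 2 was the shortest list, and UNx 3 had the highest median −log10 q (26.5, against 12.1 to 20.3 in the other libraries). The promoters of the 6 S1 markers tested (Slc5a2, Slc5a12, Slc34a1, Lrp2, Cubn and Slc4a4) had a peak in all 6 lists, at mean ranks of 80.5 to 96.2 in Sham and 80.0 to 95.9 in UNx libraries. Every UNx library lay below every Sham library at Lrp2 (means 96.2 in Sham and 92.8 in UNx) and Cubn (90.8 and 84.2), as in 11.7% of all tested regions. Neither passed the threshold (limma adjusted p 0.260 and 0.214). The groups of the other S1 markers overlapped, and 3 of the 6 had a higher mean in UNx. Of markers of other cells, the distal convoluted tubule markers Slc12a3 and Pvalb, the collecting duct marker Aqp2, the stromal markers Pdgfrb, Acta2 and Tagln and the immune markers Ptprc, Cd68 and Cd3e had no peak within 1 kb of a start in any list. The thick limb markers Slc12a1 and Umod and the collecting duct markers Aqp3 and Scnn1g did have one in all 6 lists, as did the distal convoluted tubule marker Calb1 (ranks 54.4 to 71.4 over the 6 libraries), while Trpm6, of the same segment, had one in 4. The 4 distal convoluted tubule markers summed to 54.4 to 91.5 in Sham and 83.0 to 96.4 in UNx. The 4 collecting duct markers summed to 171 to 177 in Sham and 170 to 216 in UNx. The sum of 216 was that of UNx 1, the only list with a peak at the collecting duct marker Atp6v1b1 (rank 39.4). Aqp3 averaged 81.5 in Sham and 85.6 in UNx, and Scnn1g 93.0 and 86.8, without overlap between the groups in either. The summed ranks of the markers were 4.92 to 28.2 in Sham and 0 to 4.39 in UNx for 4 endothelial genes, and 63.6 to 97.4 and 56.9 to 82.4 for 3 podocyte genes. Of 4 stromal genes Col1a1 alone had a peak, at 68.9 to 69.4 in Sham and 54.1 to 66.1 in UNx. The part of such cells in the results was not tested.

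The 10 genes differed widely in how much open chromatin they held. Igf1r had 52 regions, more than 99.8% of the 21938 coding genes have in the same kind of window. Egfr followed with 27, Insr and Met with 19 each, Erbb2 with 16, Igf1 with 11, Erbb4 and Hbegf with 9 each, and Egf and Erbb3 with 8 each, against a median of 5 over all coding genes. Per 100 kb the order changed. Erbb2 had 24.5 regions, Hbegf 17.7, Igf1r 16.2, Egfr 13.1, Erbb3 12.9, Met 12.7, Insr 9.62, Igf1 9.26, Egf 6.79 and Erbb4, a gene of 1076 kb, 0.807, with a median of 6.39 over all coding genes. Introns of the genes held 142 of the 178 regions. Regions in all 6 lists made up 56.7% of these regions and 53.4% of all regions. Of the 35 regions found in 1 list only, 16 were in UNx 3. Tested promoter regions had a median rank of 84.4 over the 6 libraries and tested distal regions one of 50.5, where the median of all tested regions was 48.4.

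At the promoters, 9 of the 10 genes had a region in all 6 lists. None of the 11 promoter regions tested passed the threshold (limma, smallest adjusted p 0.246), against 0.788% of the 74781 regions tested genome-wide. Of these 11 regions, 5 had a higher mean rank in UNx and 1, at Egf, had groups that did not overlap, as did 23.7% of all tested regions. Erbb4 was the exception, with no region within 1 kb of a start in all 6 lists. A region just beyond that distance, 1063 bp from a start, was in all 6.

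**Figure D1:**
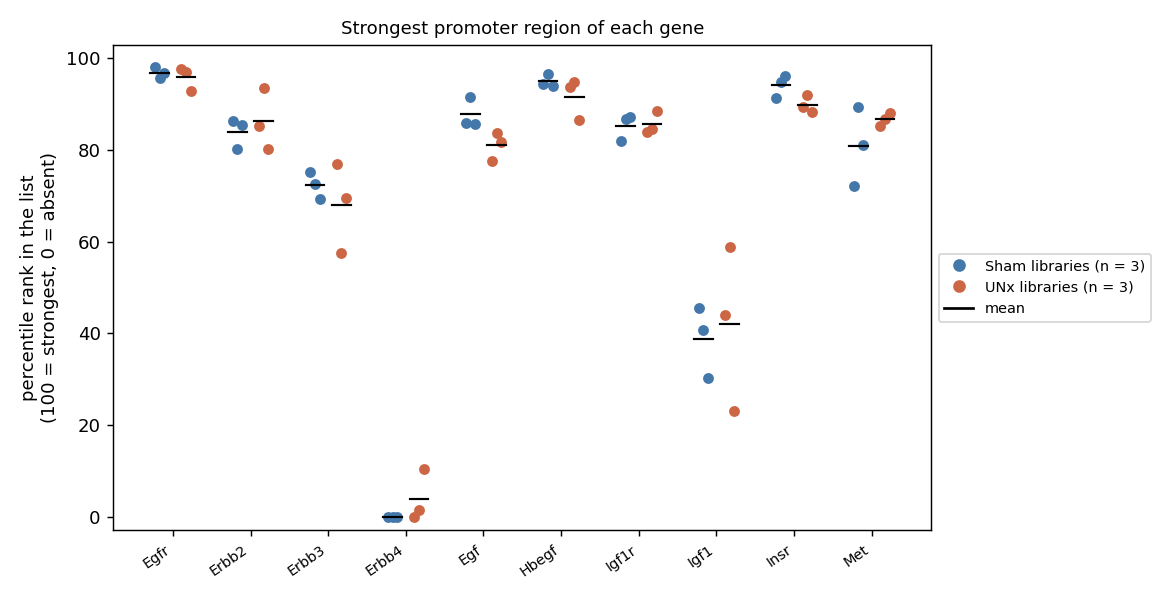
Percentile rank (0 to 100, vertical axis) of the strongest promoter region of each gene in the 3 Sham and 3 UNx libraries; points are libraries and bars are group means. Of these promoters those of 8 genes lie above 55 in every library, Igf1 lies between 23.1 and 58.8, and Erbb4 is at or near 0.

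Among the receptors, Egfr had the strongest promoter of the 10 genes (chromosome 11, 16751327 to 16753568, summit in the 5′ UTR). Its ranks were 98.1, 95.6 and 96.9 in Sham and 97.6, 97.1 and 92.9 in UNx libraries. The groups overlapped. Insr (chromosome 8, 3278067 to 3279961) stood at 91.3, 94.9 and 96.2 in Sham and 89.3, 92.0 and 88.3 in UNx libraries, with an overlap between Sham 1 and UNx 2 (limma unadjusted p 0.0476, adjusted p 0.263). Erbb2, the ErbB receptor with no known ligand of its own, was at 86.3, 80.2 and 85.5 in Sham and 85.2, 93.6 and 80.2 in UNx libraries. The Igf1r region, 979 bp from the annotated start, was at 82.0, 86.8 and 87.2 in Sham and 83.9, 84.5 and 88.6 in UNx libraries. In neither gene did the groups separate. Met was at 72.2, 89.4 and 81.2 in Sham and 85.3, 86.7 and 88.2 in UNx libraries, so its UNx values lay inside the Sham range. Erbb3, which signals mainly as a partner of the other ErbB receptors, was at 75.1, 72.6 and 69.4 in Sham and 76.9, 57.5 and 69.5 in UNx libraries. At Erbb4, a region 66 bp from a start was in UNx 2 (rank 1.46) and UNx 3 (10.4) and in none of the Sham lists, too few lists to be tested, and 1 further region near that start was in UNx 3 alone. Its gene body nevertheless held 7 distal regions, 3 of them in all 6 lists. Of these 3, the region 1063 bp from a start (chromosome 1, 69105969 to 69107412) averaged 46.1 in Sham and 41.2 in UNx libraries.

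Of the ligands, Hbegf had a promoter near the level of Egfr (chromosome 18, 36515102 to 36516178). It ranked at 94.4, 96.6 and 93.9 in Sham and 93.7, 94.7 and 86.6 in UNx libraries. UNx 3 was the lowest and the groups overlapped. Igf1 was the weakest ligand promoter, at 45.5, 40.8 and 30.2 in Sham and 44.0, 58.8 and 23.1 in UNx libraries, with the UNx values spread more widely than the Sham values. Egf had 2 promoter regions in all 6 lists. The one at the first exon of the full-length transcript (chromosome 3, 129754135 to 129755590) averaged 68.8 in Sham and 76.3 in UNx libraries. The one at a set of annotated internal starts (129724926 to 129725863) was stronger, at 85.9, 91.6 and 85.8 in Sham and 77.7, 83.7 and 81.7 in UNx libraries. All 3 UNx values lay below all 3 Sham values, a difference of −6.75 ± 3.06 (SE) that was not past the threshold (limma adjusted p 0.246).

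The internal promoter of Egf printed above holds the NRF1 string on 2 occasions and the ETS string, which occur in 0.971% and 3.89% of the 32851 promoters of the RefSeq table. Neither string lies within 100 bp of the summit of the open region there, which falls outside the printed promoter. Egf is also a gene of the distal nephron, so the thick limb markers are given beside it. The summed rank of the 4 thick limb promoters was 119 to 125 in Sham and 84.4 to 151 in UNx libraries. Slc12a1 averaged 56.9 in Sham and 30.2 in UNx libraries (limma adjusted p 0.131), with every UNx library below every Sham library. Umod averaged 65.4 and 69.4 (limma adjusted p 0.750), and its groups overlapped. Cldn16 and Kcnj1 had a peak in 1 list each, that of UNx 1 (ranks 5.52 and 38.4), the library with the summed rank of 151. The part of these cells in the Egf values was not tested. A region open in fewer cells and a region less open in each cell cannot be told apart in these libraries.

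Of the 128 tested regions of the 10 genes 2 passed the threshold, both of them distal. There was 1 in each direction, where 0.435% of all tested regions passed as higher and 0.353% as lower in UNx. Groups did not overlap in 30 of the 128 (18 higher and 12 lower in UNx), or 23.4%, against 23.7% of all tested regions (12.0% higher and 11.7% lower), and 22 had an unadjusted limma p under 0.05, or 17.2%, against 18.6%. The share of regions that separated at these genes was thus near that of the genome. The median difference was 1.41 percentile points over the 128 regions and −0.0112 over all tested regions. Ranking by fold enrichment in place of −log10 q turned the sign for these genes, with a median of −2.13 over 116 regions and 0.00776 over all.

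**Figure D2:**
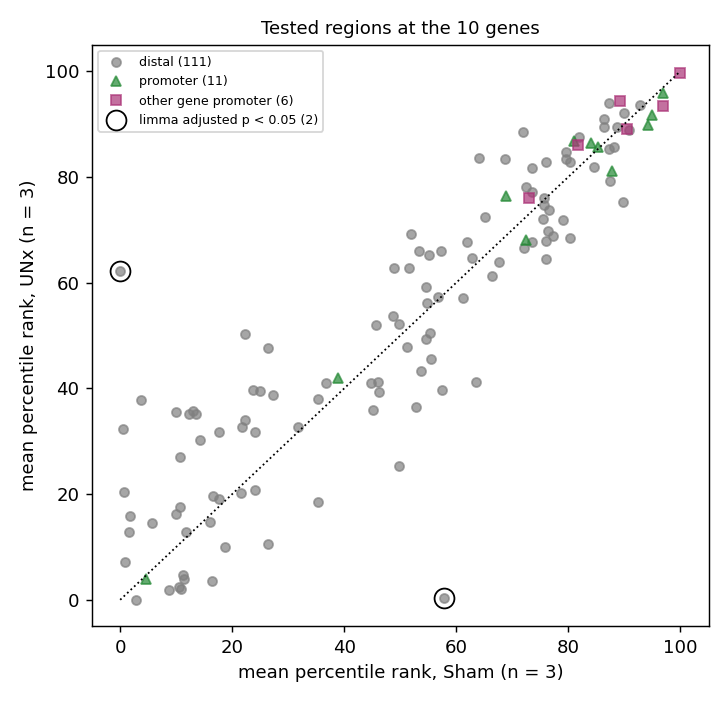
Mean percentile rank in UNx (vertical) against Sham (horizontal, n = 3 libraries each) for the 128 tested regions of the 10 genes, by position. Most points lie near the dotted line of equal rank, and the 2 circled regions, past a limma adjusted p of 0.05, lie at the left and lower edges.

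The region that rose was in an intron of Igf1r, 69113 bp from its start (chromosome 7, 68021682 to 68022131). It was at 0 in all 3 Sham libraries and at 59.5, 58.8 and 68.0 in UNx libraries, a difference of 62.1 ± 10.1 (SE; limma adjusted p 0.0185). It was thus in the 3 UNx lists and in no Sham list at equal list length, as were 1.04% of all regions. The reverse, in the 3 Sham lists and no UNx list, held for 0.934% of all regions, and either for 1.98%. At the 10 genes there was 1 region of each kind. Among all deposited peaks it was also present in Sham 1 and Sham 3, where the authors' −log10 q was 4.51 and 4.71, against 26.5, 42.2 and 78.6 in the UNx lists. So 2 of the 3 Sham libraries held a weak peak there, and Sham 2 had none. Ranking by fold enrichment brought the difference to 27.4 (limma adjusted p 0.199). The region entered the test, which needs presence in at least 3 lists, only through the UNx lists, where it is high. With no such minimum the adjusted p was 0.136. It passed the threshold in 5 of 16 alternatives, with adjusted p from 0.00263 to 0.199. None of the 10 strings occurs in its printed window.

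The region that fell was in an intron of Erbb4, 284301 bp from the nearest start of that gene (chromosome 1, 68823148 to 68823560). Its ranks were 49.3, 65.1 and 58.8 in Sham and 1.13, 0 and 0 in UNx libraries, a difference of −57.4 ± 10.4 (SE; limma adjusted p 0.0279). All 3 Sham libraries were high, and UNx 1 alone of the UNx libraries had a deposited peak (authors' −log10 q 4.76, against 25.3, 19.3 and 34.1 in Sham). It too entered the test only through the group where it is high, the Sham lists, and with no minimum number of lists the adjusted p was 0.136. It passed in 4 of 16 alternatives, with adjusted p from 0.00860 to 0.136. Its window also holds none of the 10 strings. Neither region passed the threshold when any 1 of the 6 libraries was left out (limma adjusted p 0.0547 to 0.111 for Igf1r and 0.0547 to 0.124 for Erbb4), or with ranks corrected for GC content (0.0725 for both). Their differences kept their sign and, with the libraries left out, stayed within 59.1 to 63.7 and −61.6 to −53.7.

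**Figure D3:**
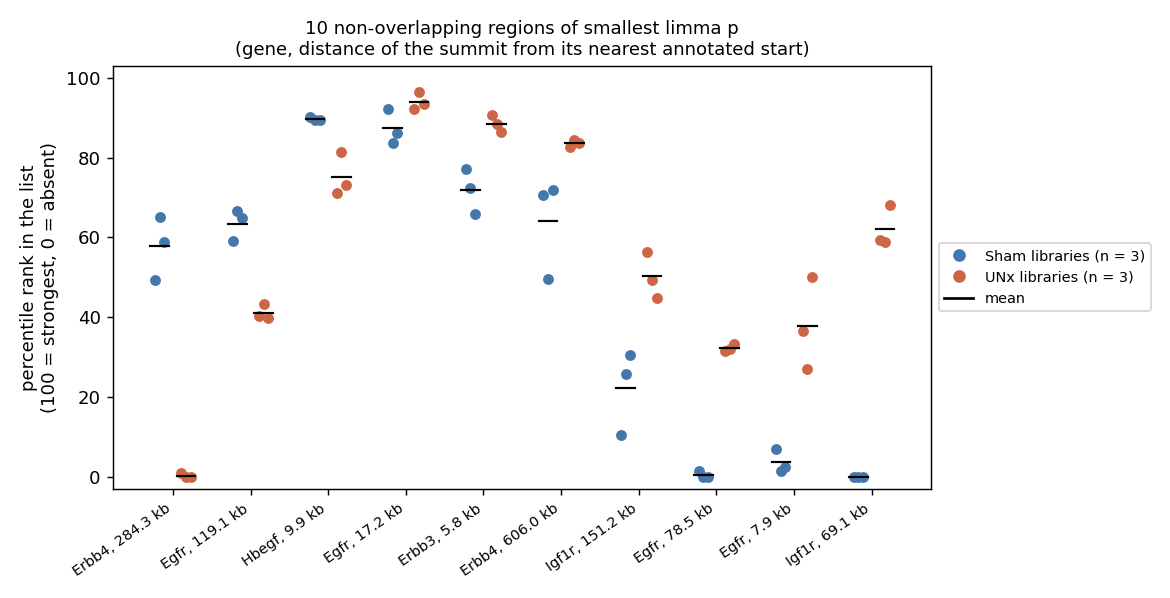
Percentile rank (0 to 100, vertical axis) of the 10 regions of smallest limma p whose groups do not overlap, ordered by difference, with the gene and the distance from its nearest annotated start; points are libraries and bars are group means. The Erbb4 region at the left and the Igf1r region at the right are the 2 past the threshold.

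A second Erbb4 intron region, 606032 bp from the nearest start (chromosome 1, 68501184 to 68502032), differed in the other direction. It was the strongest distal region of the gene, at 70.6, 49.5 and 72.0 in Sham and 82.6, 84.3 and 83.7 in UNx libraries. The groups did not overlap, Sham 2 was the lowest library, and the difference of 19.5 ± 5.66 (SE) did not pass the threshold (limma adjusted p 0.0910). Without Sham 2 the difference was 12.2 (adjusted p 0.196). It was the only one of the 6 tested distal regions of Erbb4 with a higher mean rank in UNx, but 2 of 6 were higher with GC-corrected ranks and 4 of 7 with all deposited peaks.

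In Erbb3 an intron region 5780 bp from the start (chromosome 10, 128583700 to 128584224) came closest to the threshold without passing it. Its ranks were 77.2, 72.4 and 65.9 in Sham and 90.6, 88.3 and 86.3 in UNx libraries, with every UNx library above every Sham library. The difference was 16.6 ± 3.91 (SE; limma adjusted p 0.0524) and passed in 1 of 17 alternatives, normal scores of the ranks (adjusted p 0.0347). The adjusted p was up to 0.525, with ranking by fold enrichment. A second intron region 1748 bp from the start, the strongest distal region of Erbb3, averaged 79.6 ± 3.23 in Sham and 84.7 ± 1.12 after UNx (SD, n = 3 each). The mean of the Erbb3 promoter was 72.4 ± 2.90 in Sham and 68.0 ± 9.77 in UNx (SD, n = 3 each), a difference smaller than the UNx spread.

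Hbegf had the next region by p, 9919 bp upstream of its start and 2423 bp from the start of the neighbouring Slc4a9, a bicarbonate transporter gene (chromosome 18, 36525436 to 36525925). The ranks were 90.2, 89.4 and 89.5 in Sham and 71.0, 81.4 and 73.2 in UNx libraries. The Sham libraries lay within 1 point of each other and above every UNx library, with a difference of −14.5 ± 3.47 (SE; limma adjusted p 0.0541). It passed in 1 of 17 alternatives, normal scores (adjusted p 0.0453), and the adjusted p was up to 0.313, with ranking by fold enrichment. All 7 tested distal regions of Hbegf were in all 6 lists, and 3 of them had a higher mean rank in UNx.

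Egfr introns held regions that separated in both directions, 5 higher and 3 lower in UNx among 20 tested, none past the threshold. Over all tested regions 12.0% separated as higher and 11.7% as lower. At 7896 bp from the start (chromosome 11, 16759861 to 16760374) the ranks were 6.93, 1.51 and 2.59 in Sham and 36.5, 26.9 and 50.04 in UNx libraries (limma adjusted p 0.109). At 78533 bp (16830605 to 16830959) they were 1.55, 0 and 0 in Sham and 31.5, 32.0 and 33.3 in UNx libraries (limma adjusted p 0.0945). In both regions every UNx library lay above every Sham library. The second was in 1 Sham list and entered the test only through the UNx lists, where it is high. With no minimum number of lists its limma adjusted p was 0.170. It passed in 1 of 16 alternatives, without trend or robust variance (adjusted p 0.0353). With a −log10 q of at least 5 its difference was 15.5 in place of 31.7 (adjusted p 0.247), and with 1 library left out the adjusted p was 0.113 to 0.262. With the same bound on −log10 q the difference at 7896 bp was 22.4 in place of 34.1 (adjusted p 0.178). The printed window of the region at 78533 bp holds the AP-1 string on 2 occasions. That string was found within 100 bp of the summit in 7.24% of all tested regions and in 12 of the 128 at these genes. In the other direction, a region 119076 bp from the start (16871003 to 16871574), nearer to the start of Fbxo48 at 80088 bp, was at 59.0, 66.5 and 64.8 in Sham and 40.4, 43.2 and 39.8 in UNx libraries (limma adjusted p 0.126).

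Strong regions in Egfr introns had smaller differences. A region 17239 bp from the start (16769089 to 16770354) was at 92.1, 83.6 and 86.1 in Sham and 92.3, 96.3 and 93.4 in UNx libraries, where Sham 1 and UNx 1 nearly touch (limma adjusted p 0.144). With only the 20000 strongest peaks its difference was 25.9 in place of 6.70 (limma adjusted p 0.195). It and the region at 7896 bp hold the TEAD string GGAATGT, found in 3.90% of all tested regions and in 8 of the 128. The strongest distal region of Egfr, 129933 bp from the start, averaged 89.9 ± 5.82 in Sham and 92.1 ± 3.51 after UNx (SD, n = 3 each). A weak region 87299 bp from the start was in the 3 Sham lists (ranks 0.409 to 6.33) and no UNx list at equal length, but 2 of the 3 UNx libraries had a deposited peak there.

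**Figure D4:**
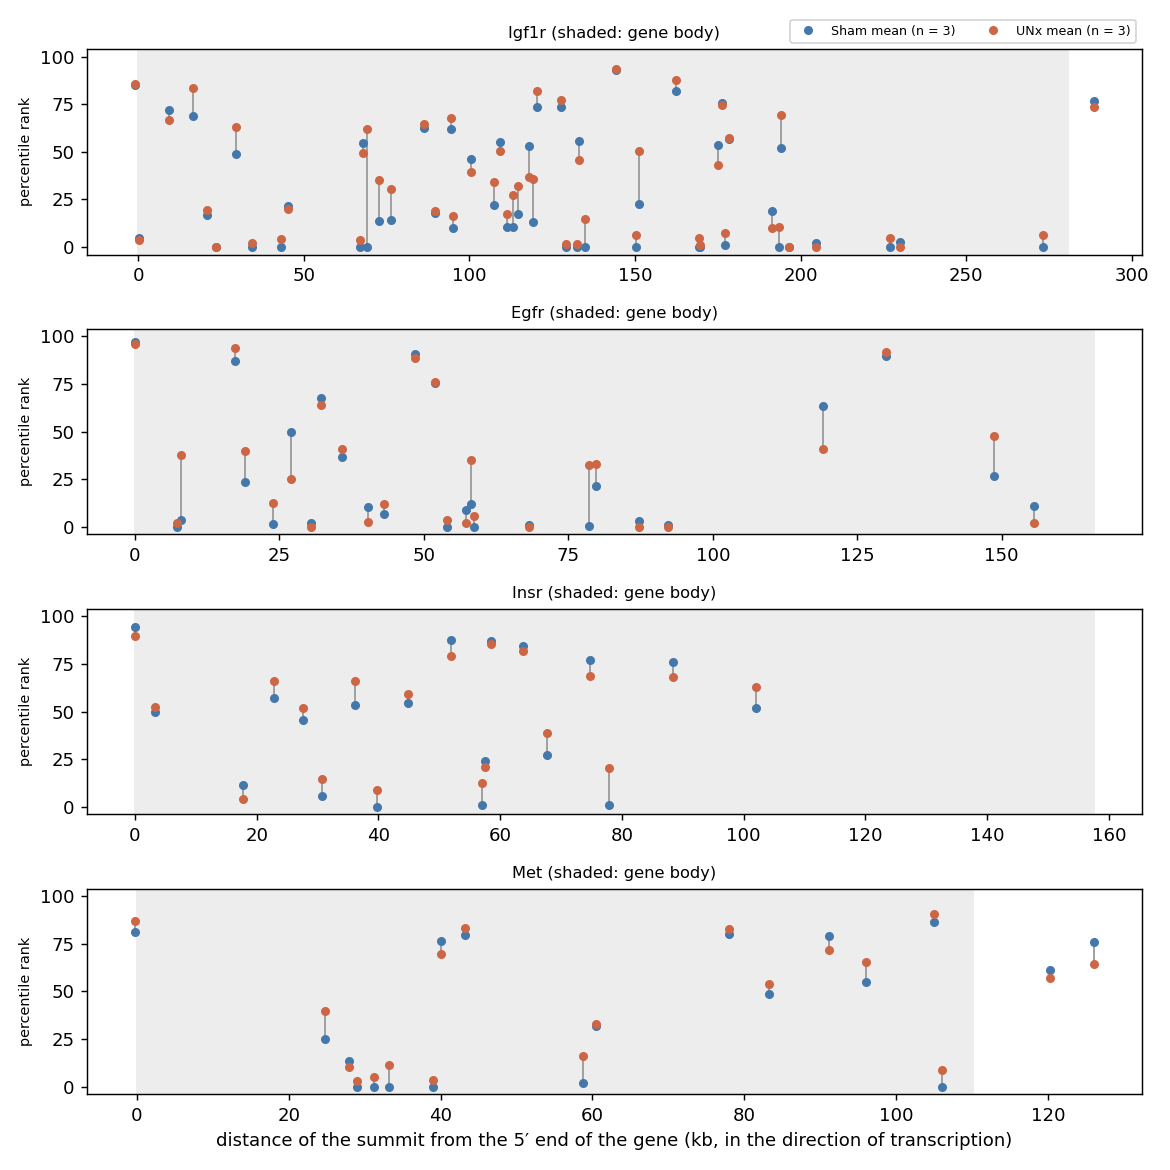
Mean percentile rank (vertical) of every region at Igf1r, Egfr, Insr and Met in Sham and UNx libraries (n = 3 each) against the distance in kb from the 5′ end of the gene; grey lines join the means of a region and shading marks the gene body. Igf1r and Egfr hold regions across most of the gene body, and none lies near the 3′ end of Insr.

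Igf1r was the one gene of the 10 at which the number of regions per list did not overlap between the operations. It had 33 regions in each of the 3 Sham lists and 37, 41 and 43 in the UNx lists, all at equal list length. No UNx list was as low as a Sham list, a separation that 3.33% of the 18205 coding genes with a region showed in that direction (2.37% in the other). The median window over all coding genes held 5 regions, and such small counts tie more readily. The share among windows with as many regions as Igf1r was not computed. Among all deposited peaks the numbers at Igf1r were 41, 40 and 51 in Sham and 49, 56 and 54 in UNx libraries, and the groups overlapped through Sham 3. Of its 36 tested regions 24 had a higher mean rank in UNx with a median difference of 3.30, and 7 separated, 6 of them higher. Over all tested regions 49.9% had a higher mean rank, 23.7% separated and 12.0% did so as higher. With ranking by fold enrichment 10 of 23 were higher, at a median of −1.46.

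**Figure D5:**
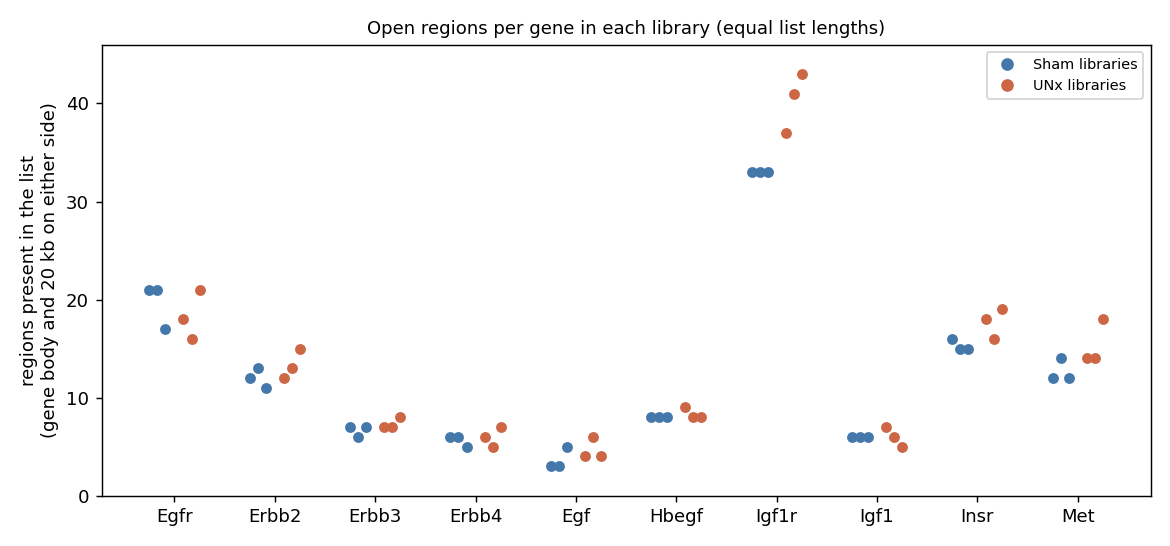
Number of regions at each gene (vertical axis) that are present in each library, with lists of equal length; points are the 3 Sham and 3 UNx libraries. At Igf1r the 3 Sham lists coincide at 33 and the UNx lists hold 37 to 43, while in the other genes the groups touch or overlap.

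Besides the region that rose, an Igf1r intron region 151178 bp from the start (chromosome 7, 68103546 to 68104239) was at 10.5, 25.8 and 30.7 in Sham and 56.3, 49.4 and 44.9 in UNx libraries. Every UNx library lay above every Sham library (limma adjusted p 0.151). The other 4 that separated as higher had differences of 8.31 to 21.6 (limma adjusted p 0.161 to 0.300), and the 1 lower region, 117983 bp from the start, averaged 52.9 ± 5.20 in Sham and 36.5 ± 9.27 in UNx (SD, n = 3 each). The strongest distal region of Igf1r, 144420 bp from the start, ranked at 89.1, 95.5 and 93.7 in Sham and 92.8, 94.1 and 93.9 in UNx libraries. It was the strongest distal region of all 10 genes and its UNx values lay inside the Sham range.

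At Insr 4 of the 17 tested regions separated, each lower in UNx and none past the threshold, where 23.7% of all tested regions separated and 11.7% did so as lower, although 9 of the 17 had a higher mean rank in UNx. These 4 lay in introns between 51929 and 88387 bp from the start, with differences of −8.51 to −2.61 (limma adjusted p 0.171 to 0.685). At 51929 bp (chromosome 8, 3227242 to 3228284) the ranks were 84.8, 88.6 and 88.9 in Sham and 76.8, 81.9 and 79.1 in UNx libraries, and every UNx library lay below every Sham library. The strongest distal region, 58441 bp from the start (chromosome 8, 3220876 to 3221776), averaged 87.2 ± 1.46 in Sham and 85.3 ± 3.76 after UNx (SD, n = 3 each). At Met 2 of the 13 tested regions separated, both higher in UNx, against 12.0% of all tested regions. The strongest of its distal regions, 77610 bp from the nearest start (chromosome 6, 17568162 to 17569444), was at 85.5, 85.7 and 88.0 in Sham and 88.5, 91.7 and 92.4 in UNx libraries (limma adjusted p 0.303). The groups lay side by side without overlap.

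In Erbb2 the strongest distal region, 14293 bp from the start (chromosome 11, 98426241 to 98427221), averaged 88.6 ± 3.42 in Sham and 89.5 ± 2.51 after UNx (SD, n = 3 each). Its window also took in promoters of Pgap3, Mien1 and Grb7, and that of Erbb3 took in those of Zc3h10, Rpl41 and Pa2g4. The Pa2g4 promoter, at 99.9 in Sham and 99.7 in UNx libraries, was the strongest region in any of the 10 windows and is not assigned to Erbb3. Igf1 had its strongest distal region 10182 bp upstream of the nearest start (chromosome 10, 87847705 to 87848624), at 65.2 ± 5.95 and 72.4 ± 7.23, and Egf had 1 tested distal region, at 44.7 ± 1.55 and 41.0 ± 11.7 (SD, n = 3 each). The groups overlapped in both.

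The promoters of 48 further genes of these pathways were read from the same fit. A promoter region was tested for 41 of them, 0 passed the threshold, 23 had a higher mean rank in UNx, and 4 separated in each direction. Of all tested regions 0.788% passed, 49.9% had a higher mean rank and 23.7% separated. The median difference was 0.532. Of the HGF genes, Mst1r, the receptor related to MET, had the smallest p of the 41. It averaged 83.7 ± 2.11 in Sham and 91.6 ± 0.642 after UNx (SD, n = 3 each; limma unadjusted p 0.00401, adjusted p 0.102), and Spint1, an inhibitor of the proteases that activate HGF, 81.8 ± 3.65 and 77.8 ± 5.30. Among the adaptors, Sos2, an exchange factor for RAS, averaged 81.3 ± 8.56 and 68.4 ± 3.12, and Irs2, a docking protein of the insulin and IGF receptors, 79.0 ± 2.90 and 67.2 ± 8.69. Neither passed (limma adjusted p 0.177 and 0.233), though both separated.

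Of the EGF family ligands, Nrg2 averaged 60.5 ± 14.3 and 72.8 ± 14.6 and Areg 69.2 ± 5.19 and 59.5 ± 16.4 (SD, n = 3 each). In the IGF list the binding protein genes Igfbp7 (97.6 ± 0.572 and 94.1 ± 2.94) and Igfbp1 (94.6 ± 2.93 and 97.2 ± 1.47) were both near the top of the lists. The feedback genes Spry1, a RAS pathway inhibitor, and Errfi1, an inhibitor of EGFR, averaged 75.6 ± 2.14 and 83.1 ± 4.10, and 94.2 ± 4.01 and 91.3 ± 2.11. The proteases Adam10 (98.6 ± 0.185 and 98.0 ± 0.115) and Adam17 (97.8 ± 1.38 and 98.0 ± 0.381), which release EGF family ligands from the membrane, had promoters among the strongest of these genes in both operations.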

How the data were processed

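Each of the 6 libraries has 1 peak list in narrowPeak format, so replicates were not pooled. Per the submitters' processing notes, cutadapt 3.4, Bowtie, SAMtools, Picard and MACS2 2.2.7.1 were used with the build mm10; their settings and the filter applied are not given in the sources used here. For each summit the authors deposited a fold enrichment (a ratio over background), a −log10 p and −log10 q, and a display score, which was not used. All intervals lay within the chromosomes of GRCm38. Depth is unknown, and no interval that needs it is given.

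A peak was 1 distinct interval with its strongest summit. Lists were cut to 77355 peaks and ranked by −log10 q. Merging intervals that shared 1 bp or more gave 99359 regions. The 74781 regions in at least 3 of 6 lists were tested with limma 3.58.1 in R 4.3.3 (a two-sided test with trend and robust variance; p-values adjusted by Benjamini-Hochberg over all of them; threshold 0.05), a step tested on simulated ranks. Named regions were, for each gene, the strongest promoter and distal region, every region past the threshold, the 10 of smallest p whose groups did not overlap, and every region in all lists of 1 operation and none of the other; for other pathway lists, the 2 genes of smallest p. Strings were searched within 100 bp of summits. Promoter sequences came from RefSeq (7 of 10 genes matched). The alternatives are listed with their effect in the closing section. The genes, lists and alternatives were chosen with earlier results of these data known.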

Additional observations from a re-analysis of the deposited data

How the results depend on the processing

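The 2 regions called at the 10 genes became 0 with all deposited peaks (23 had an unadjusted limma p under 0.05), 0 with the 20000 strongest (9), 0 when ranked by fold enrichment (18), 0 with GC-corrected ranks (24), 0 without a minimum number of lists (21), 4 with normal scores, and 0 to 0 when any 1 library was left out (15 to 22). Over all regions the 589 calls became 22, 2, 3, 2 and 2 in the same order, 1583 with normal scores, and 4 to 76 with 1 library left out. Regions that did not overlap numbered 13 of 44 tested with the 20000 strongest peaks, where fewer exist, and 38 to 46 of 128 with 1 library left out. Regions in all lists of one operation and none of the other numbered 4 with all deposited peaks, 6 with a −log10 q of at least 5, and 2 to 8 with 1 library left out. Leaving out a library loosens both conditions. The share over all regions is not given for these settings, so these counts are not a result about the 10 genes. With gene bodies alone there were 11 promoter regions and 0 at neighbouring genes. A promoter window of 2.5 kb gave 11 at neighbouring genes. The cause of these changes was not tested.

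Deviations of same-numbered libraries correlated at 0.00819, −0.100 and −0.0496. These values gave no sign of pairing by replicate number but cannot exclude it, because differences between whole lists also enter them. Under a replicate block 56 regions were called in all and 1 at these genes, that of Igf1r (limma adjusted p of the Erbb4 region 0.0601). With the block and GC-corrected ranks both counts were 0 (22 at these genes had an unadjusted limma p under 0.05).

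Of 464 values of 28 named regions under 17 alternatives, 417 kept sign and call, 23 lost a call, 3 gained one and 21 changed sign, none of these last in the 2 called regions. Signs changed with all deposited peaks at the Egf distal region (0.879), with GC-corrected ranks at the Erbb2 distal region (−0.219, also with the block), and with fold enrichment at the Egfr (−0.138), Erbb3 (−0.531) and Igf1r (−3.42) strongest distal regions and the Erbb2 (−3.80) and Igf1r (−0.944) promoters. With 1 library left out, promoter differences ranged from −1.87 to 0.479 at Egfr, −1.31 to 5.401 at Erbb2, −8.85 to 0.831 at Erbb3, −5.27 to 12.6 at Igf1 and −1.31 to 1.32 at Igf1r. Those of the strongest distal regions ranged from −7.14 to 3.11 at Egf, −1.02 to 4.70 at Egfr, −0.555 to 2.80 at Erbb2, −0.982 to 2.24 at Igf1r and −3.48 to 0.193 at Insr.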
